A study of Rattus norvegicus with 12 samples.

Results

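The mitochondrial ribosomal RNAs of rat hippocampal CA1 are described here through 2 Ensembl identifiers, ENSRNOG00000043866 for the 16S rRNA (Mt-rnr2) and ENSRNOG00000030478 for the 12S rRNA (Mt-rnr1). They are 2 of the 32662 identifiers in the count files and were chosen by their counts, as the most and the second most abundant ones in these same libraries, so that their high level is a description and not a finding. The gene names come with the rule that picked the identifiers. The files carry no names, and the names were not checked against an annotation here. RNA was sequenced from the CA1 pyramidal cell layer of adult male Wistar rats, for which the labels give 45 to 50 days of age and 180 to 200 g. Whether this age and weight are those at treatment or at sampling is not stated here. Epileptic rats had been given intraperitoneal kainate, a glutamate receptor agonist, at 5 mg/kg every hour until status epilepticus began. They were given diazepam at 4 mg/kg to end the seizures, followed by dextrose in saline, and were sampled 6 to 8 weeks after the status in the chronic phase. Control rats had been given vehicle, saline or DMSO, and otherwise similar care. Superficial and deep sublayers were cut separately by laser from 20 µm sections of each brain, which gave 12 libraries from 3 epileptic and 3 control animals: superficial epileptic, deep epileptic, superficial control and deep control, 3 each. Per the labels, seizures were seen or recorded in a subset of animals and never in controls.

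Mitochondria carry their own small genome and their own ribosomes. The 12S rRNA is the RNA of the small mitochondrial ribosomal subunit and the 16S rRNA that of the large subunit, and these ribosomes translate the mitochondrially encoded subunits of the respiratory chain. In mammals both rRNA genes lie side by side on the heavy strand, close to its promoters, and are transcribed as parts of a joint precursor from which the rRNAs are cut, so their levels after that step reflect both synthesis and turnover. Copies of mitochondrial DNA also lie in nuclear chromosomes, and the sources used here do not give how reads that match such copies were counted. They also do not give whether RNA species were selected or removed before sequencing, while the labels give total RNA as the molecule. A level below is therefore the level among sequenced and uniquely counted reads, not an amount per cell, and fewer cells of a type cannot be told apart from less RNA per cell.

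The libraries held 16135358 to 25893962 gene counts. The 16S rRNA ranked 1 and the 12S rRNA ranked 2 in all 12 libraries. The identifier at rank 3 differed between libraries and held 0.559 to 1.28% of the gene counts, below the lowest 12S share of 2.33%. By mean share over all libraries, the members stood at 14.4% and 3.91%, and the next in order were ENSRNOG00000054493 at 0.684%, ENSRNOG00000034234 at 0.683%, ENSRNOG00000058555 at 0.470%, ENSRNOG00000020263 at 0.288% and ENSRNOG00000030700 at 0.266%. Counts of 1491757 to 5303207 reads for 16S and 480334 to 1307612 for 12S leave little counting error. The exact (Clopper-Pearson) 95% binomial interval of a share was at most 0.0360 percentage points wide, and it covers counting error only. The spread between animals was much wider. Shares and counts were not corrected for gene length, so the level of 16S is not set against that of 12S, and only changes in their ratio are compared.

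The 16S rRNA took a larger share of the gene counts in epileptic than in control rats, in both sublayers and without overlap between the animals. In superficial CA1 it held 11.0, 18.7 and 19.1% in epileptic animals 1, 2 and 3, against 8.24, 8.35 and 9.37% in control animals 1, 2 and 3. In deep CA1 it held 16.6, 22.8 and 22.5% in epileptic animals 1, 2 and 3, against 11.2, 12.97 and 11.7% in control animals 1, 2 and 3. Epileptic animal 1 lay nearest to the controls in both sublayers. Averaged over both sublayers of an animal, the share was 18.5% ± 4.02 in epileptic and 10.3% ± 0.500 in control rats (SD, n = 3 animals each; exact two-sided permutation test, p = 0.1, the smallest value that 3 animals against 3 can give, adjusted p = 0.167 over the 15 exact tests made of these measures). The design therefore cannot place this difference below 0.05 by that test.

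Scaled for library composition and fitted across all identifiers, the same difference was close to 2-fold and did not pass the adjustment. In superficial CA1 16S averaged 167192 ± 53470 CPM (counts scaled to a common library size, with TMM factors for composition) in epileptic and 81904 ± 6142 in control libraries (SD, n = 3 each). The log2 fold change was 1.05 (SE 0.25, edgeR's quasi-likelihood test, unadjusted p = 0.00294, Benjamini-Hochberg adjusted p = 0.125). In deep CA1 it averaged 224687 ± 50309 CPM in epileptic and 115719 ± 10034 CPM in control libraries (SD, n = 3 each), with a log2 fold change of 0.96 (SE 0.17, edgeR unadjusted p = 0.000361, adjusted p = 0.103). In superficial CA1 0.0140% of 14321 identifiers passed, with 0.00698% higher and 0.00698% lower in epileptic rats, and 18.9% lay at an unadjusted p below 0.05. In deep CA1 0% of 14261 identifiers passed, and 13.7% lay at an unadjusted p below 0.05. The 3 epileptic libraries lay above the 3 control libraries for 10.3% of all identifiers in superficial and 8.88% in deep CA1, and below them for 14.2% and 9.67%, so that a gap between the groups was common. Replicate numbers belong to different animals in epileptic and control rats. Deviations from the group means of libraries with the same number correlated at r = 0.218, 0.104 and 0.244 in deep CA1. In superficial CA1 they correlated at r = 0.212, 0.00252 and 0.170. With the number as a block, the deep fit gave 16S an adjusted p of 0.0188 at a log2 fold change of 0.94 (edgeR). That fit called 239 of 14261 identifiers, against 0 as fitted without the block. In superficial CA1 the block gave 16S an adjusted p of 0.0976 (edgeR). DESeq2 called 16S in both sublayers, at an adjusted p of 0.0001005 in superficial and 4.344e-06 in deep CA1. It called more identifiers in general, 885 of 14319 in superficial and 376 of 14261 in deep CA1. The call also depended on single libraries: edgeR called 16S without epileptic animal 1 (adjusted p = 0.00435 in superficial and 0.00964 in deep CA1) and, in deep CA1, without epileptic animal 3 (adjusted p = 0.0397). Calls rose across identifiers in these fits. Without epileptic animal 1 they were 1443 of 14492 in superficial and 552 of 14438 in deep CA1. Without epileptic animal 3 they were 275 of 14398 in deep CA1.

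The 12S rRNA, the small-subunit partner, did not separate the conditions. In superficial CA1 it held 2.33, 4.49 and 5.92% of the gene counts in epileptic animals 1, 2 and 3, against 2.90, 2.98 and 3.40% in control animals 1, 2 and 3. In deep CA1 it held 2.99, 4.91 and 5.94% in epileptic animals 1, 2 and 3, against 3.50, 3.43 and 4.06% in control animals 1, 2 and 3. Epileptic animals 2 and 3 lay above every control library of their sublayer, and epileptic animal 1 lay below every one. Averaged over the sublayers of an animal, the share was 4.43% ± 1.65 for epileptic against 3.38% ± 0.303 for control rats (SD, n = 3 each; exact two-sided permutation test, p = 0.4, adjusted p = 0.462). The fitted log2 fold change was 0.60 in superficial CA1 (SE 0.35, edgeR adjusted p = 0.376) and 0.52 in deep CA1 (SE 0.25, edgeR adjusted p = 0.410). An interval of 2 SE to either side runs from −0.09 to 1.302 in superficial and from 0.01 to 1.02 in deep CA1, and the log2 fold changes of 16S, 1.05 and 0.96, lie within these intervals. Without epileptic animal 1, edgeR called 12S as higher in epileptic rats in both sublayers, with log2 fold changes of 0.93 (adjusted p = 0.0269) in superficial and 0.79 (adjusted p = 0.0162) in deep CA1, and without epileptic animal 3 the values were 0.26 and 0.27 (adjusted p = 0.760 and 0.689). The fits without epileptic animal 1 called 827 of 14492 identifiers as higher in superficial and 395 of 14438 in deep CA1.

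**Figure D1:**
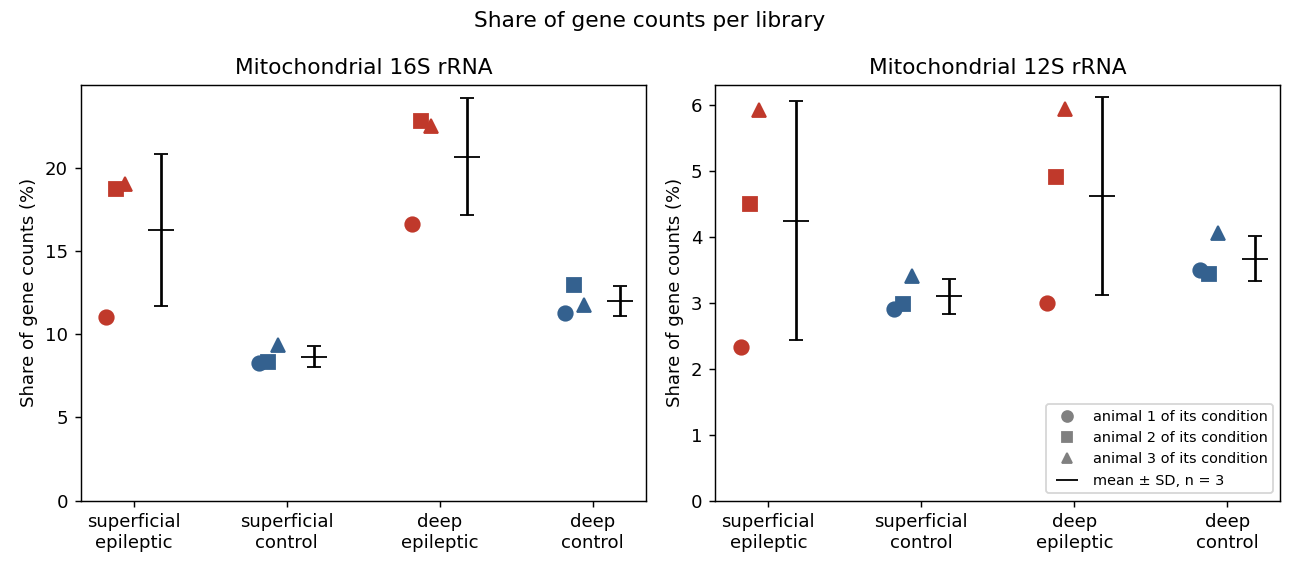
Share of all gene counts, in percent, held by the 16S rRNA (left) and the 12S rRNA (right) in each of the 12 libraries, with 1 point per animal and the mean ± SD of 3 animals beside the points. For 16S the epileptic animals lie above the control animals of their sublayer, while for 12S epileptic animal 1 lies below the controls, at 2.33% in superficial and 2.99% in deep CA1.

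Together the 2 rRNAs held 13.3, 23.2 and 25.0% of the gene counts in superficial and 19.6, 27.7 and 28.5% in deep libraries of epileptic animals 1, 2 and 3. Control animals 1, 2 and 3 had 11.1, 11.3 and 12.8% in superficial and 14.7, 16.4 and 15.8% in deep libraries. The highest value, in deep CA1 of epileptic animal 3, thus left 14838818 counts for all other identifiers in that library. Epileptic libraries held 22267986 gene counts on average and control libraries 17999879, and 62.5% of that difference in raw counts lay in the 2 rRNAs. All other identifiers together had 14838818 to 19890353 counts in epileptic and 13585443 to 17371174 in control libraries, ranges that overlap. Raw counts also carry depth, as all alignments averaged 68952280 in epileptic and 61214906 in control libraries. As a share of all alignments, the other identifiers averaged 24.9% in epileptic and 25.4% in control libraries. Both rRNAs together averaged 7.43% and 4.03%.

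Within animals, superficial CA1 had less of both rRNAs than deep CA1. The 16S share of superficial CA1 was 0.662, 0.819 and 0.846 times that of deep CA1 in epileptic animals 1, 2 and 3, and 0.733, 0.644 and 0.798 times in control animals 1, 2 and 3. The superficial minus deep difference was −3.87 ± 1.17 percentage points over the 6 animals (SD; exact two-sided sign-flip permutation test, p = 0.03125, the smallest value that 6 animals can give, adjusted p = 0.156), and it was below 0 in 6 of 6 animals. For 12S the superficial share was 0.779, 0.914 and 0.996 times the deep share in epileptic animals and 0.829, 0.868 and 0.839 times in control animals. The 12S difference was −0.468 ± 0.241 percentage points (SD, n = 6; exact two-sided sign-flip permutation test, p = 0.03125, adjusted p = 0.156), again below 0 in 6 of 6 animals, although in epileptic animal 3 it was only −0.0230 percentage points. On the scaled log2 CPM, 10.5% of all identifiers were lower in superficial than in deep CA1 in all 6 animals, and 11.0% were higher. Library tallies differed between the sublayers as well. Alignments that were not unique differed, superficial minus deep, by 5.42, 4.39 and −3.12 percentage points of all alignments in epileptic animals 1, 2 and 3, and by 2.10, 6.28 and 3.26 in control animals 1, 2 and 3. Alignments outside features differed by −5.24, −1.42 and 3.25 points in epileptic animals and by −1.80, −4.62 and −3.21 in control animals. Epileptic animal 3 ran opposite to the other 5 animals in both tallies. The part of these tallies in the sublayer differences of the rRNAs was not tested.

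With each animal as a block and the test run over 14791 identifiers, both rRNAs passed as lower in superficial than in deep CA1, in epileptic and in control rats alike. For 16S the log2 fold change was −0.46 in epileptic rats (SE 0.07, edgeR adjusted p = 0.0008) and −0.50 in control rats (SE 0.07, edgeR adjusted p = 0.000423). For 12S it was −0.25 in epileptic rats (SE 0.06, edgeR adjusted p = 0.0141) and −0.27 in control rats (SE 0.06, edgeR adjusted p = 0.00856). Of all identifiers, 5.00% passed as lower and 5.04% as higher in superficial CA1 of epileptic rats, against 4.18% as lower and 4.26% as higher in control rats. The 16S calls remained without any 1 of the 6 animals, with adjusted p of at most 0.00753 in epileptic and 0.0187 in control rats. The 12S call in epileptic rats was lost without epileptic animal 1 (log2 fold change −0.16, edgeR adjusted p = 0.0668) or 2 (edgeR adjusted p = 0.0691). The 12S call in control rats was lost without control animal 1, 2 or 3 (edgeR adjusted p = 0.130, 0.0644 and 0.0987). All 4 calls were lost without the animal as a block (edgeR adjusted p = 0.647 to 0.947).

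The sublayer difference itself was not shown to differ between epileptic and control rats. The log2 fold changes differed by 0.04 for 16S (SE 0.10, edgeR adjusted p = 0.973) and by 0.02 for 12S (SE 0.08, edgeR adjusted p = 0.982), epileptic minus control. An interval of 2 SE to either side runs from −0.16 to 0.24 for 16S and from −0.14 to 0.19 for 12S. In that test 0% of the 14791 identifiers passed and 6.60% lay at an unadjusted p below 0.05. Expressed in shares, the superficial minus deep difference of 16S was −4.41 ± 1.09 percentage points for epileptic against −3.33 ± 1.16 for control rats (SD, n = 3 each; exact two-sided permutation test, p = 0.4, adjusted p = 0.462).

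The balance between the large-subunit and the small-subunit rRNA was higher in every epileptic animal than in any control animal of the sublayer. It was lower in superficial than in deep CA1 of every animal, with no exact test below 0.05 after adjustment. The ratio needs no scaling between libraries, but it is made of the same counts as the shares above, and the members were chosen by these counts. The count of 16S divided by that of 12S was 4.72, 4.16 and 3.22 in superficial CA1 of epileptic animals 1, 2 and 3, against 2.84, 2.80 and 2.75 in control animals 1, 2 and 3. In deep CA1 the ratio was 5.56, 4.65 and 3.79 in epileptic animals 1, 2 and 3, against 3.21, 3.78 and 2.89 in control animals 1, 2 and 3. The groups did not overlap in either sublayer, but in deep CA1 the lowest epileptic value, 3.792, lay next to the highest control value, 3.776. How often ratios of other identifiers separate the conditions, or differ between sublayers in the same direction in every animal, was not examined. Epileptic animal 1, with the smallest shares of both rRNAs among the epileptic rats, had the highest ratio, and epileptic animal 3, with the largest 12S shares, had the lowest ratio among them. As a log2 ratio averaged within each animal, it was 2.10 ± 0.28 for epileptic against 1.60 ± 0.10 for control rats (SD, n = 3 each). The difference of 0.50 had the smallest p the design allows (exact two-sided permutation test, p = 0.1, adjusted p = 0.167).

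The ratio was also lower in superficial than in deep CA1 in 6 of 6 animals, by −0.22 ± 0.12 on the log2 scale (SD, n = 6; exact two-sided sign-flip permutation test, p = 0.03125, adjusted p = 0.156). In epileptic animals 1, 2 and 3 the log2 difference was −0.23, −0.16 and −0.24, and in control animals 1, 2 and 3 it was −0.18, −0.43 and −0.07. Superficial control libraries were nearly alike in this ratio, with a coefficient of variation of 1.55% (n = 3), against 18.8% in superficial epileptic libraries (n = 3). In deep CA1 the coefficient of variation was 18.9% in epileptic and 13.6% in control libraries (n = 3 each).

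**Figure D2:**
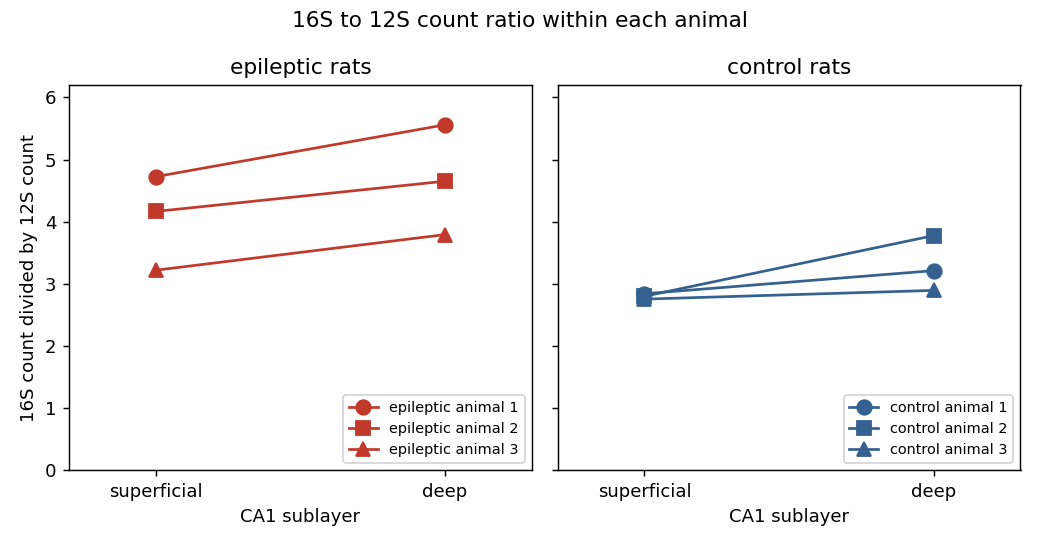
Count of the 16S rRNA divided by the count of the 12S rRNA in superficial and deep CA1 of each animal, with epileptic rats on the left and control rats on the right, and lines joining the sublayers of 1 animal. Every line runs lower at the superficial end, and the epileptic values span 3.22 to 5.56 against 2.75 to 3.78 in controls.

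How far the fold changes of the rRNAs lay from those of other identifiers depended on which identifiers they were set against. Over all identifiers tested, 720 of 14321 (5.03%) in superficial and 464 of 14261 (3.25%) in deep CA1 had a log2 fold change of epileptic over control at least as high as that of 16S, itself included. For 12S the shares were 10.5% in superficial and 9.23% in deep CA1. For superficial over deep, 4.06% in epileptic and 5.85% in control rats were at least as far below 0 as 16S, and 11.4% and 13.8% as far as 12S. Shares were smaller once identifiers of low counts were left out. In superficial CA1 27 of the 5274 identifiers with a mean log2 CPM of at least 5 (0.512%) had an epileptic over control value at least as high as that of 16S, and 84 (1.59%) one at least as high as that of 12S. In deep CA1 the numbers were 12 of 5112 (0.235%) for 16S and 80 of 5112 (1.56%) for 12S. The median over all identifiers tested was 0.01 in superficial and 0.00 in deep CA1. With the same floor, 43 of 5182 identifiers (0.830%) for superficial over deep were at least as far below 0 as 16S in epileptic rats and 29 of 5182 (0.560%) in control rats. The 12S rRNA was less extreme there, with 253 (4.88%) in epileptic and 175 (3.38%) in control rats. These positions describe size alone and take no account of the spread between animals.

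**Figure D3:**
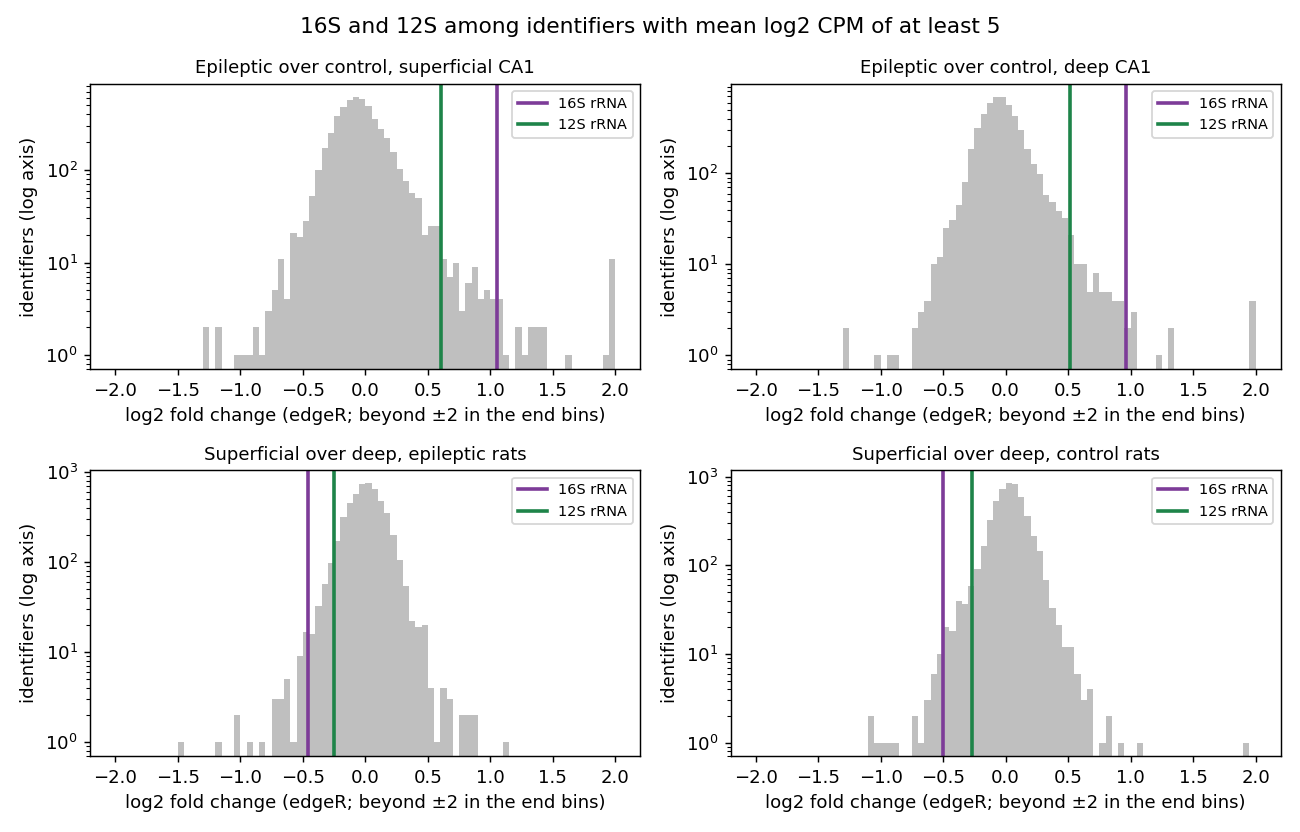
Distribution of log2 fold changes over identifiers with a mean log2 CPM of at least 5 (bars, number of identifiers on a log axis; values beyond ±2 in the end bins), with the 16S and 12S rRNAs as vertical lines. Upper panels show epileptic over control and lower panels superficial over deep; 16S lies farther from 0 than 12S in all 4, at 1.05 and 0.60 in superficial epileptic over control.

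The fold changes also depended on how libraries were scaled. With library size as the only scaling, the median log2 fold change of epileptic over control over all identifiers was −0.12 in superficial and −0.16 in deep CA1. With both rRNAs taken out of the library size, and no other scaling, the median was 0.04 in superficial and 0.01 in deep CA1. Under library size alone, the log2 fold change of 16S was 0.91 in superficial and 0.79 in deep CA1, against 1.05 and 0.96 with TMM. For 12S it was 0.46 in superficial and 0.33 in deep CA1, against 0.60 and 0.52 with TMM. Both rRNAs were above 0 under each of these scalings. Most of the change with scaling was shared with the median identifier. Relative to the median, 16S stood at 1.045 with TMM and 1.025 with library size alone in superficial CA1. In deep CA1 these values were 0.959 and 0.945. For 12S they were 0.598 and 0.572 in superficial, and 0.515 and 0.492 in deep CA1.

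Between conditions, other tallies of the libraries also differed. Alignments outside annotated features made up 37.7, 25.3 and 25.6% of all alignments in superficial and 43.0, 26.7 and 22.3% in deep CA1 of epileptic animals 1, 2 and 3, against 35.8 to 42.2% in superficial and 40.4 to 44.0% in deep control libraries. Epileptic animals 2 and 3, in which 12S was above the controls, were thus below the control range in this tally, and epileptic animal 1 was within it. Alignments that were not unique made up 30.6, 42.3 and 42.5% in superficial and 25.2, 37.9 and 45.6% in deep CA1 of epileptic animals 1, 2 and 3, against 28.0 to 34.8% in superficial and 25.9 to 28.5% in deep control libraries. Epileptic animals 2 and 3 had more rRNA than epileptic animal 1, more alignments that were not unique and fewer outside features. Between sublayers of an animal, superficial CA1 had more alignments that were not unique in 5 of 6 animals. As a share of all alignments in place of gene counts, 16S made up 3.46, 6.02 and 6.03% in superficial and 5.25, 8.03 and 7.15% in deep CA1 of epileptic animals 1, 2 and 3, against 2.43 to 2.68% in superficial and 3.35 to 3.99% in deep control libraries. The part of these tallies, and of the mix of cells collected, in the rRNA differences between conditions or sublayers was not tested.

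**Figure D4:**
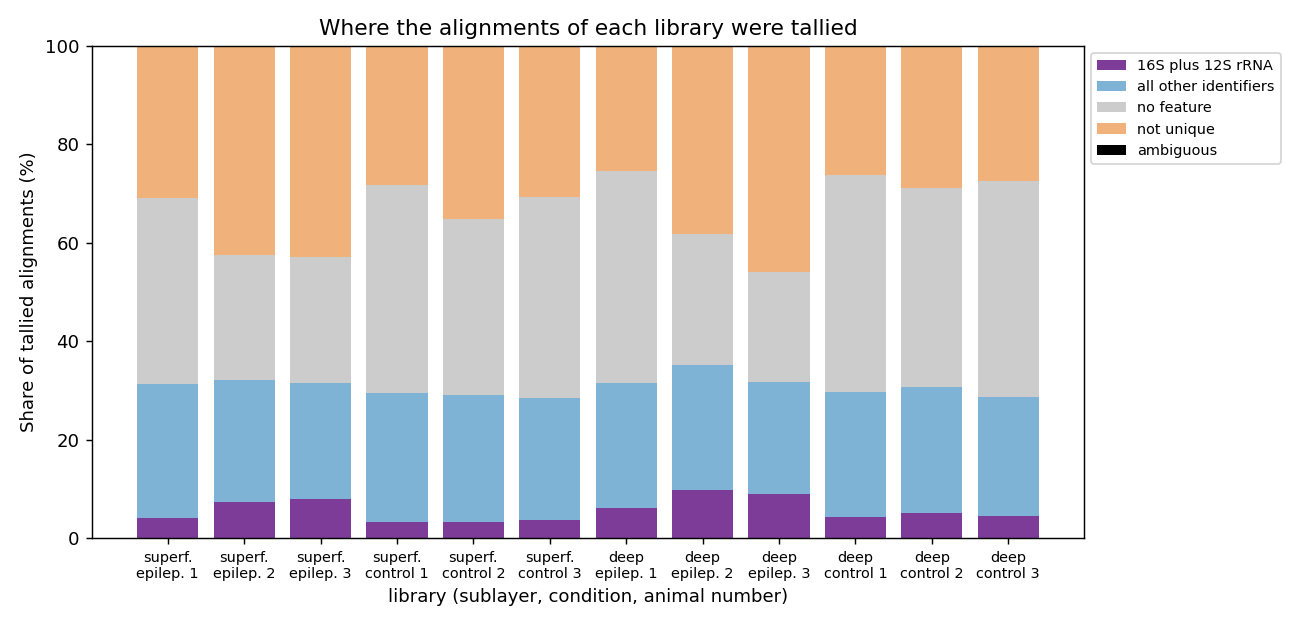
Percent of all tallied alignments of each library that fell on both rRNAs, on all other identifiers, on no feature, at several places (not unique) or on several features (ambiguous, too thin to see). Epileptic animals 2 and 3 show more rRNA (7.47 to 9.75%), less no feature and more not unique alignments than the control libraries, and epileptic animal 1 lies near the controls in the last 2.

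The spread between animals in both rRNAs was wider among epileptic than among control rats, a difference that was not tested and that rested largely on epileptic animal 1. The SD of log2 CPM between animals was 0.53 for 16S and 0.76 for 12S in superficial epileptic libraries, against 0.11 and 0.13 in superficial control libraries (n = 3 each). In deep CA1 it was 0.35 for 16S and 0.60 for 12S in epileptic libraries, against 0.12 and 0.12 in control libraries (n = 3 each). Without epileptic animal 1, the SD of the other 2 epileptic animals was 0.007 for 16S and 0.27 for 12S in superficial CA1, and 0.01 for 16S and 0.20 for 12S in deep CA1. The 16S spread was then below that of the controls, and the 12S spread above it, though SDs of 2 animals are set here against SDs of 3. With 1 control animal left out, the SD in superficial CA1 ran from 0.035 to 0.145 for 16S and from 0.050 to 0.176 for 12S. In deep CA1 it ran from 0.044 to 0.168 for 16S and from 0.0026 to 0.150 for 12S. Over the 5142 identifiers with a mean log2 CPM of at least 5, the median SD was 0.14 in superficial epileptic and 0.08 in superficial control libraries, and 0.15 in deep epileptic and 0.09 in deep control libraries. An SD at least as large as that of 16S was found for 1.79% of them in superficial and 6.42% in deep CA1 of epileptic rats, against 32.4% and 28.5% in control rats. For 12S the shares were 0.486% in superficial and 0.739% in deep CA1 of epileptic rats, against 20.3% and 29.3% in control rats.

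The 2 rRNAs followed each other across libraries with a Pearson r of 0.84 on log2 CPM over 12 libraries, and of 0.94 for deviations from the group means. These points share animals and library composition, and the values are descriptive. Epileptic animal 1 was the lowest of the epileptic animals in both rRNAs and both sublayers. In superficial control libraries both rRNAs rose from animal 1 to animal 3. In deep control libraries 16S was highest in animal 2 and 12S in animal 3. How far the correlation of the deviations rests on epileptic animal 1 was not tested. Of 5140 other identifiers with a mean log2 CPM of at least 5, 53 followed 16S more closely than 12S did, and 82 followed 12S more closely than 16S did. The closest to 16S were ENSRNOG00000030954 (r = 0.95), ENSRNOG00000018114 (r = 0.94), ENSRNOG00000016043 (r = 0.94), ENSRNOG00000003809 (r = 0.93) and ENSRNOG00000017689 (r = 0.93). The closest to 12S were ENSRNOG00000020673, ENSRNOG00000017689 and ENSRNOG00000018114 (r = 0.94 each), followed by ENSRNOG00000015124 and ENSRNOG00000009889 (r = 0.93 each). ENSRNOG00000017689 and ENSRNOG00000018114 stand in both lists. None of these 8 identifiers is paired with a gene name here. The largest of them, ENSRNOG00000016043, held at most 0.0359% of the gene counts of a library.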

How the data were processed

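RNA of laser-cut CA1 sublayers from 6 rats was sequenced as 12 libraries. The deposited values are raw counts of reads per Ensembl gene identifier, 1 file per library, with 5 summary tallies that entered no library size and no test. Per the submitters' processing notes, FastQC 0.11.3, STAR 2.5.0c, SAMtools 0.1.19, HTSeq 0.6.1 and the build Rnor_6.0 were used; settings and strand use are not given in the sources used here. Grouping followed the sublayer, condition and replicate number in their titles, the number being taken as the animal. Deviations of superficial and deep libraries of 1 number correlated at 0.316 to 0.770 across identifiers. Those of deep epileptic and deep control libraries of 1 number correlated at 0.218, 0.104 and 0.244, and those of superficial ones at 0.212, 0.00252 and 0.170. Whether the numbers of different animals mark a shared batch is not given. No libraries of a group were duplicates, the chi-square per identifier being at least 7.29.

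Counts were fitted in R 4.3.3 with edgeR 4.0.16 (filterByExpr, minimum count 10 and total 15; TMM; robust quasi-likelihood test; Benjamini-Hochberg threshold 0.05), with DESeq2 1.42.0 as an alternative. Epilepsy was tested per sublayer in 6 libraries, and the sublayer difference in all 12 with a term per animal. The SE is the absolute log2 fold change over the square root of F, an approximation. CPM used TMM over all 12 libraries, and log2 CPM a prior count of 2. Per-animal shares and log2 ratios were tested by exact permutation or sign flips, and the 15 p-values were adjusted together. A share over both rRNAs was not tested. On simulated counts, edgeR recovered 67.2% of 2-fold changes in deep and 56.7% in superficial libraries, and 95.5% between sublayers. Of its calls there, 7.30% in deep, 5.74% in superficial and 4.89% between sublayers were false. The simulation drew each identifier independently, with no shift shared across the identifiers of an animal. Recovery in the real libraries, where animals differ in this way, is therefore not given by it.

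The members and all lists were chosen with earlier results of these data known. The members were named in full, with the 5 next in share and the 5 of closest pattern for each. A symbol was found for 0 of the 32662 identifiers, so the fixed lists of mitochondrial and cell type genes, and the check of the tissue by its markers, were not analysed here.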

Additional observations from a re-analysis of the deposited data

How the results depend on the processing

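The fold changes of both rRNAs kept their direction under every alternative for epilepsy and for the sublayers. Leaving out 1 library at a time, epileptic over control ranged from 0.86 to 1.14 for 16S in deep CA1, 0.90 to 1.304 for 16S in superficial CA1, 0.27 to 0.79 for 12S in deep CA1 and 0.26 to 0.93 for 12S in superficial CA1. Leaving out 1 animal, superficial over deep ranged from −0.52 to −0.36 for 16S in epileptic and −0.58 to −0.41 in control rats, and from −0.32 to −0.16 for 12S in epileptic and −0.29 to −0.25 in control rats. The change of the sublayer difference by epilepsy turned sign in 3 of these 6 fits for 16S and in 1 of the 6 for 12S. The ranges were −0.048 to 0.14 for 16S and −0.046 to 0.11 for 12S, and the cause was not tested. Per-animal superficial minus deep differences without 1 animal were −4.17 to −3.52 percentage points for 16S, −0.557 to −0.430 for 12S and −0.25 to −0.18 for the log2 ratio, and 5 animals cannot give an exact p below 0.0625.

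For 16S in deep CA1, the log2 fold change was 0.96 and called with no low-count filter (adjusted p = 0.0109), 0.97 and called by DESeq2, and 0.94 and called with the replicate block; in superficial CA1 it was 1.06 and called by DESeq2, and the replicate block gave 0.99 (adjusted p = 0.0976). Without the replicate block of the animal, the sublayer fold changes were not called, at −0.43 (16S) and −0.20 (12S) in epileptic and −0.50 (16S) and −0.27 (12S) in control rats. With library size only, 12S in epileptic rats was −0.16 and not called.

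In deep CA1, the numbers of identifiers called for epilepsy, 0 as fitted, were 8 with RLE size factors, 8 with both rRNAs left out of the scaling, 8 with library size without both rRNAs and no TMM (chosen after seeing the data), 40 with library size only, 103 with no filter, 376 by DESeq2 and 239 with the replicate block, and 0 to 552 without 1 library (552 without epileptic animal 1 and 275 without epileptic animal 3). In superficial CA1, 2 as fitted, they were 97 with library size only, 130 with no filter, 885 by DESeq2 and 25 with the replicate block, and 0 to 1443 without 1 library (1443 without epileptic animal 1 and 409 without epileptic animal 3). Between sublayers in epileptic rats, 1484 as fitted, they were 2621 with library size only, 811 by DESeq2 and 5 with no replicate block, and 536 to 2217 without 1 animal. In control rats, 1248 as fitted, they were 1910 with no filter, 815 by DESeq2 and 5 with no replicate block, and 416 to 2071 without 1 animal. For the change of the sublayer difference, 0 as fitted, they were 178 with no filter, 2 by DESeq2 and 0 to 84 without 1 animal. The cause of these shifts was not tested. The planned ratio of both rRNAs to mitochondrial mRNAs was not run, because the identifiers of those mRNAs are not paired with names here. Counting error of the shares was small beside the spread between animals, and with 3 animals per condition the exact permutation tests cannot give a p below 0.1. The SDs without 1 animal were chosen after seeing the data.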
